A study of Mus musculus with 12 samples.

Results

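The Rel subunits of NF-κB are the 5 proteins from which every NF-κB dimer is built, and their genes in the mouse are Nfkb1, Nfkb2, Rel, Rela and Relb. The 5 genes were set as a known family and their isoforms were found by gene name, which gave 33 isoforms of 5 genes out of 84846 isoforms of 28852 genes. The samples were bone marrow-derived mast cells (BMMCs) of BALB/c mice, grown from femoral marrow with IL-3 and SCF, and RNA was sequenced from 12 libraries. The blank group was the untreated control, the SiO2 group received nano-silica particles, the DNP-HSA group received a haptenated albumin, used as antigen for mast cells carrying IgE against DNP, and the DNP-HSA+SiO2 group received both (n = 3 libraries per group). No dose or time was found for the sequenced cells, nor whether they had been sensitized with IgE. Each group held 1 unnumbered library, here called unnumbered, and libraries 1 and 2. The sources do not say whether they came from separate cultures, and p-values therefore cover only the spread among libraries, which may be technical.

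NF-κB proteins share a Rel homology region that binds DNA and joins subunits into dimers. In resting cells IκB proteins hold the dimers in the cytoplasm. In the canonical pathway the IKK complex marks IκB for destruction, and dimers such as p50 with p65 enter the nucleus. In the noncanonical pathway the kinase encoded by Map3k14 leads to processing of p100, and p52 with RelB is released. Nfkb1 and Nfkb2 encode the precursors p105 and p100, which are cut to the DNA-binding subunits p50 and p52 and carry IκB-like ankyrin repeats in their other part. Rel (c-Rel), Rela (p65) and Relb encode the subunits that hold a transactivation domain. In mast cells, cross-linking of the high-affinity IgE receptor is known to activate NF-κB through a CARD protein, Bcl10 and Malt1.

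Total estimated counts per library ranged from 55737606 to 76718065. The cells carried mast cell transcripts in all 12 libraries, with a summed level of 9 mast cell markers of 17449 to 27903 FPKM (fragments scaled to transcript length and library depth), while 5 dendritic cell markers summed to 0.506 to 13.04 FPKM, mostly from Cd74 (0.457 to 12.2), with Flt3 listed at 0 in 11 libraries. The 4 unnumbered libraries stood apart from the 8 numbered ones. Of 12862 genes tested, 25.1% differed between unnumbered and numbered libraries with the group in the model (edgeR quasi-likelihood test, Benjamini-Hochberg adjusted p under 0.05, a comparison added after the data were seen). The 8 macrophage and neutrophil markers summed to 8.59 to 9.80 FPKM in the unnumbered libraries and to 19.0 to 116 FPKM in the numbered ones, mostly from Lyz2 (3.04 to 3.71 against 17.9 to 87.8 FPKM). Adgre1 of the same list had the opposite order (3.94 to 5.56 against 0.542 to 2.61 FPKM), as had the basophil marker Mcpt8 (20.7 to 24.3 against 0.774 to 5.32). The basophil markers Cd200r3 (101 to 133 against 117 to 166) and Prss34 (0.426 to 1.17 against 0 to 1.58) overlapped. The sum of the 3 basophil markers overlapped too (122 to 158 against 121 to 167 FPKM). The mast cell sum was 17449 to 19779 FPKM in the unnumbered and 21243 to 27903 in the numbered libraries. Of the 9 mast cell markers only Cma1 did not overlap between these libraries (3698 to 4281 against 7249 to 11654 FPKM). The others overlapped, among them Cpa3 (8380 to 8687 against 7353 to 9207) and Kit (852 to 1435 against 878 to 1513). Over the treatment groups the macrophage and neutrophil sum overlapped, at 9.70 to 99.3 FPKM in the blank group, 8.59 to 89.2 in the SiO2 group, 9.08 to 85.2 in the DNP-HSA group and 9.80 to 116 in the DNP-HSA+SiO2 group. The part of these markers in the results was not tested, and the change of each member without the unnumbered libraries is given beside it. In bulk RNA, fewer cells of a type and less RNA per cell cannot be told apart.

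Promoter sequences were looked up because a gene of this family can itself be a target of NF-κB, and every member with an entry was shown. RefSeq promoter entries (250 bases before the start site and 50 after it, GRCm38.p6) were found for 3 of the 5 members, Nfkb2, Rel and Rela. Nfkb1 and Relb had no entry, so the members could not be compared as a family. Nfkb2 had 3 entries, of which the upstream one and the next are shown. Capitals mark letters matching the κB consensus, the AP-1 motif TGANTCA or the CRE half-site TGACGT on either strand.
Rel, chr11:23770920-23771219, minus strand: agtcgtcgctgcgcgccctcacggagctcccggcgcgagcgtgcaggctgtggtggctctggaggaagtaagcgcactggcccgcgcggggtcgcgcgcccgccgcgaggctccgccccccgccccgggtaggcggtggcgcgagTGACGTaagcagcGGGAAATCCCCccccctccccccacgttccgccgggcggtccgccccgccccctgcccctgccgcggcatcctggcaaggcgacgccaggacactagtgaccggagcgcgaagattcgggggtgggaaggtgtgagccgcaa
Nfkb2, upstream start, chr19:46304487-46304786, plus strand: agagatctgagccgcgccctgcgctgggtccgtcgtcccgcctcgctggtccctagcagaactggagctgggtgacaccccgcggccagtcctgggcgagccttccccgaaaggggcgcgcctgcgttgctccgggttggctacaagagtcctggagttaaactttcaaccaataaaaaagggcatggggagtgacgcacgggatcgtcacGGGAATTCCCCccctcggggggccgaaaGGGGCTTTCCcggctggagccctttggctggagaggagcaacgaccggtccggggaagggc
Nfkb2, next start, chr19:46305445-46305744, plus strand: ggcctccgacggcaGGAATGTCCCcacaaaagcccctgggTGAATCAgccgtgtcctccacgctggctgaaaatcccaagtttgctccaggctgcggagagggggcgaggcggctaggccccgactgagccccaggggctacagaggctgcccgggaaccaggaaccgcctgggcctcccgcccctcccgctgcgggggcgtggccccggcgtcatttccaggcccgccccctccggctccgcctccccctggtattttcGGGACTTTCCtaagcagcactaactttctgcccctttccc
Rela, chr19:5637291-5637590, plus strand: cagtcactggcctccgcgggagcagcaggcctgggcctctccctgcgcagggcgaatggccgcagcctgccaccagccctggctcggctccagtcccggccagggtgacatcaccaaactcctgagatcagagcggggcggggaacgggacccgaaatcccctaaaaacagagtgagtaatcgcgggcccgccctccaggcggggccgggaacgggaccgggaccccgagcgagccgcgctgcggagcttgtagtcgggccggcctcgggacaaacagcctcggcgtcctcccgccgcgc

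The Rel window held 1 stretch with the κB consensus, GGGAAATCCCC, where matches starting at -92 and -91 from the start site overlapped, and a CRE half-site at -105. The upstream Nfkb2 window held overlapping κB matches in GGGAATTCCCC, starting at -39 and -38, and a further one, GGGGCTTTCC, at -11. In the next Nfkb2 window κB matches stood at -236 and 11, with an AP-1 match at -210, and the remaining Nfkb2 entry shared the match GGGACTTTCC with it. None of the 3 motifs was found in the Rela window. Of 32851 promoter windows of this length, 4.51% held the κB consensus, 7.81% the AP-1 motif and 7.51% the CRE half-site. These matches describe letters and not binding.

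Per length and summed over isoforms, Nfkb1 was the highest of the 5 genes in 12 of 12 libraries and Relb the lowest in 11. Isoforms confined to the 3′ part of Nfkb1 made up 53.7% to 89.9% of its sum. Its other isoforms summed to 14.9, 48.5 and 17.7 FPKM in the blank libraries (unnumbered, 1 and 2). In estimated counts, not scaled to length, Rel exceeded Nfkb1 in the unnumbered SiO2 (28744 against 19120) and DNP-HSA+SiO2 (32041 against 19921) libraries. In the blank group Nfkb1 stood at 91.4 ± 11.6 FPKM (mean ± SD, n = 3), followed by Rela at 39.2 ± 7.42, Nfkb2 at 24.8 ± 3.398, Rel at 13.3 ± 0.932 and Relb at 11.01 ± 3.79. The blank libraries of Rela (32.3 to 47.0 FPKM) did not overlap those of Nfkb2 (21.3 to 28.0), whereas Rel (12.3 to 14.0) and Relb (6.76 to 14.0) overlapped. In the DNP-HSA+SiO2 group the order was Nfkb1 at 143 ± 35.3 FPKM, Nfkb2 at 43.3 ± 6.62, Rel at 41.3 ± 17.9, Rela at 38.5 ± 8.53 and Relb at 14.0 ± 4.67, and there the libraries of Nfkb2, Rel and Rela overlapped. Rela was thus at rank 2 of the 5 genes in all 3 blank libraries. It was at rank 3 or 4 in all 3 DNP-HSA and all 3 DNP-HSA+SiO2 libraries. In the SiO2 group Rela was at rank 2 in libraries 1 and 2, as in the blank group, and at rank 4 in the unnumbered library.

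Rel, which encodes c-Rel, had the largest difference from the blank group among the members. Its level in CPM, estimated counts scaled to TMM-adjusted library size, was 95.5, 89.6 and 107 in the blank libraries (unnumbered, 1 and 2), 497, 156 and 216 in the SiO2 libraries, 298, 313 and 223 in the DNP-HSA libraries and 609, 403 and 184 in the DNP-HSA+SiO2 libraries. Every treated library lay above every blank library. The blank libraries were close together, and the unnumbered SiO2 and DNP-HSA+SiO2 libraries were far above the numbered ones. The log2 change was 1.57 (SE 0.47, 95% interval 0.54 to 2.60, adjusted p = 0.331, edgeR quasi-likelihood test with Benjamini-Hochberg adjustment over 12862 genes) in the SiO2 group. It was 1.51 (SE 0.47, adjusted p = 0.327, edgeR) in the DNP-HSA group and 2.04 (SE 0.47, 95% interval 0.99 to 3.08, adjusted p = 0.0902, edgeR) in the DNP-HSA+SiO2 group. None of these passed the threshold of 0.05. Without the 4 unnumbered libraries the log2 changes were 0.92, 1.46 and 1.59, each above 0. Leaving out SiO2 unnumbered alone gave 0.94 with SiO2. Rel passed in the DNP-HSA+SiO2 group when SiO2 unnumbered (adjusted p = 0.0292, edgeR) or DNP-HSA+SiO2 2 (0.0359) was left out.

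Nfkb2, the precursor gene of p52, was also above every blank library in every treated library. Its level was 64.0, 89.5 and 86.4 CPM in the blank libraries (unnumbered, 1 and 2), 122, 160 and 113 in the SiO2 libraries, 133, 178 and 225 in the DNP-HSA libraries and 163, 177 and 171 in the DNP-HSA+SiO2 libraries. The DNP-HSA+SiO2 libraries were the least spread of all groups, with an SD of 7.27 CPM around a mean of 170.2. The log2 change was 0.72 (SE 0.22, adjusted p = 0.367, edgeR) with SiO2, 1.16 (SE 0.22, 95% interval 0.67 to 1.66, adjusted p = 0.0687, edgeR) with DNP-HSA and 1.09 (SE 0.22, 95% interval 0.60 to 1.58, adjusted p = 0.0593, edgeR) with both. These differences did not pass the threshold. Without the unnumbered libraries they were 0.63, 1.21 and 0.99. With the label numbers as a replicate block fitted across the 4 groups, Nfkb2 passed with DNP-HSA (adjusted p = 0.0426, edgeR) and with DNP-HSA+SiO2 (0.0383), although numbers do not pair these groups. It also passed with DNP-HSA when DNP-HSA unnumbered was left out (adjusted p = 0.0438, edgeR).

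Nfkb1, the precursor gene of p50, was at 206, 326 and 223 CPM in the blank libraries (unnumbered, 1 and 2), 330.3, 404 and 316 in the SiO2 libraries, 309, 451 and 616 in the DNP-HSA libraries and 379, 544 and 492 in the DNP-HSA+SiO2 libraries. Only the DNP-HSA+SiO2 libraries all lay above the blank libraries, since blank 1 exceeded SiO2 2 and the unnumbered DNP-HSA library. DNP-HSA 1 and 2 lay above every blank library, and the unnumbered DNP-HSA library lay above the unnumbered blank library. Each SiO2 library was above the blank library of the same label, and with these pairs as a replicate block the SiO2 value was 0.50 (SE 0.16, adjusted p = 0.332, edgeR). The log2 changes were 0.48 (SE 0.28), 0.87 (SE 0.28) and 0.91 (SE 0.28) with SiO2, DNP-HSA and both, with adjusted p = 0.738, 0.364 and 0.208 (edgeR). Without the unnumbered libraries they were 0.39, 0.97 and 0.93.

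Relb, the partner of p52, had the lowest counts of the family. The blank libraries held 15.1, 29.8 and 29.0 CPM (unnumbered, 1 and 2), the SiO2 libraries 26.1, 40.2 and 33.5, the DNP-HSA libraries 26.8, 44.0 and 49.0 and the DNP-HSA+SiO2 libraries 32.5, 42.2 and 48.1. The unnumbered library was the lowest of its group in all 4 groups, and only the DNP-HSA+SiO2 group did not overlap the blank group. For Relb too, each SiO2 library was above the blank library of the same label. DNP-HSA 1 and 2 were above every blank library, and the unnumbered DNP-HSA library was above the unnumbered blank library. The log2 changes were 0.43, 0.70 and 0.73 (each SE 0.31, adjusted p = 0.804, 0.655 and 0.375, edgeR), and 0.33, 0.67 and 0.63 without the unnumbered libraries.

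Rela, which encodes p65, had the smallest difference of the members in all 3 comparisons. Its level was 80.4, 104.9 and 102 CPM in the blank libraries (unnumbered, 1 and 2), 86.3, 111 and 98.2 in the SiO2 libraries, 94.2, 127 and 141 in the DNP-HSA libraries and 106, 117 and 129 in the DNP-HSA+SiO2 libraries. The SiO2 libraries covered nearly the same range as the blank libraries, and the lowest DNP-HSA+SiO2 library stood just above the highest blank library. The log2 change was 0.05 (SE 0.19, 95% interval -0.38 to 0.47) with SiO2, 0.34 (SE 0.19, -0.08 to 0.76) with DNP-HSA and 0.29 (SE 0.19, -0.13 to 0.71) with both, with adjusted p = 0.994, 0.865 and 0.648 (edgeR). On the log2(FPKM + 1) scale in limma, the value for Rela was -0.02 with SiO2 and -0.03 with both, on a scale where the median of all genes was itself lower than in the blank group, by -0.23 and -0.30 (-0.22 with DNP-HSA). The sign for Rela thus differed between the fits, as it did for SiO2 when single libraries were left out (-0.065 to 0.14), while the values of the other 4 members against blank stayed above 0 on that scale.

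**Figure D1:**
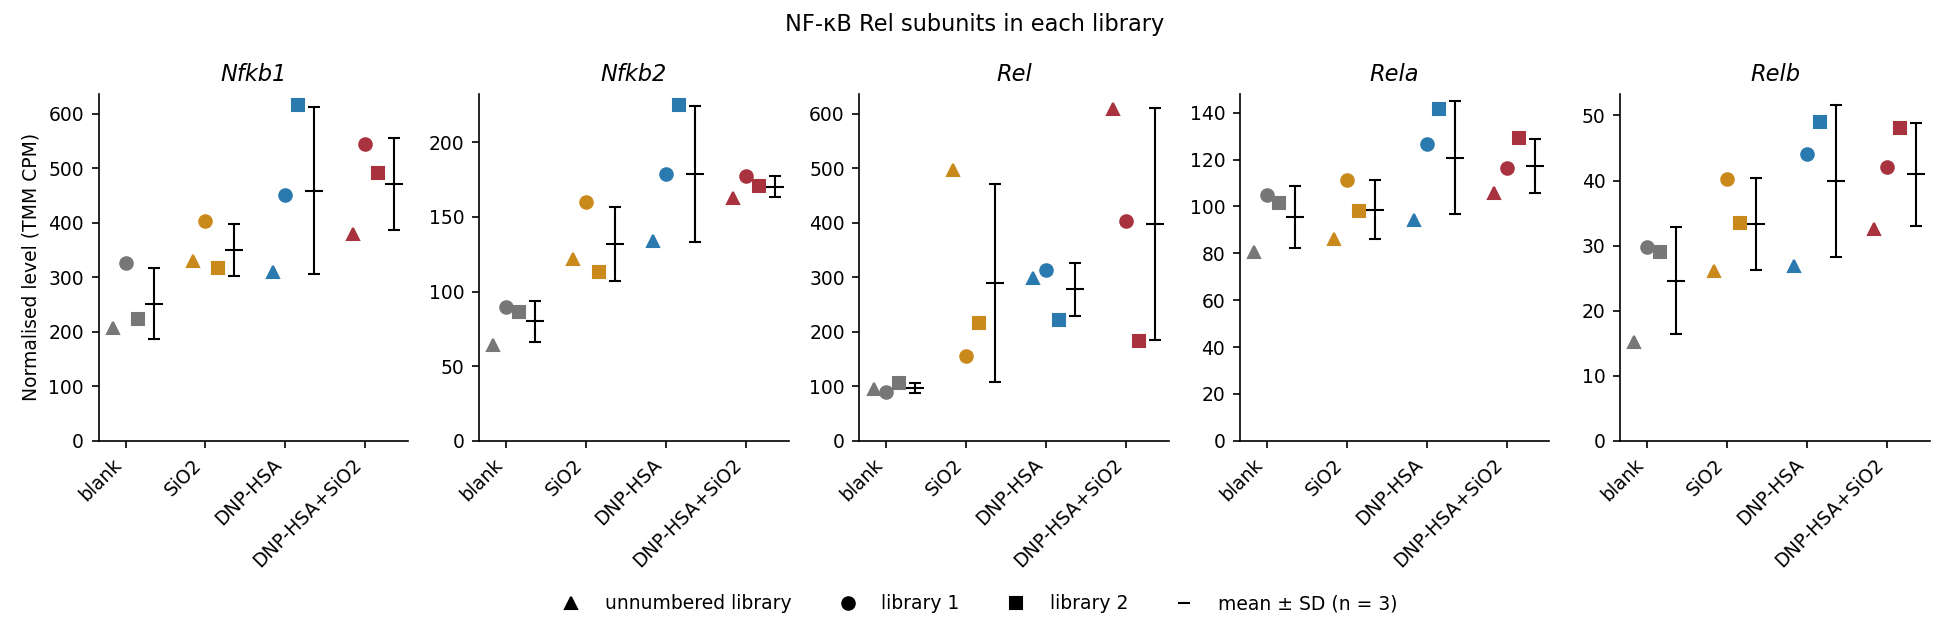
Level of each Rel subunit gene (TMM-scaled CPM, vertical axes from 0) in each of the 12 libraries by treatment group, with triangles for unnumbered libraries, circles and squares for libraries 1 and 2, and bars for the mean ± SD (n = 3). Every treated library lies above every blank library for Nfkb2 and Rel, Rel is highest in the unnumbered SiO2 and DNP-HSA+SiO2 libraries (497 and 609 CPM), and Rela differs little between groups.

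Counted over the family, 0 of 5 members passed in SiO2 compared with blank, where 0.0622% of all genes tested passed, 0 of 5 in DNP-HSA (0.218% of all genes) and 0 of 5 in DNP-HSA+SiO2 (0.575%). At an unadjusted edgeR p under 0.05, members with a higher value numbered 2 of 5 with SiO2 (5.78% of all genes tested), 4 of 5 with DNP-HSA (4.52%) and 4 of 5 with both (6.95%). The DESeq2 Wald test called 1 member with SiO2 (Rel), 2 with DNP-HSA and 2 with both (Nfkb2 and Rel each time). The same test called 278, 309 and 592 of the 12862 genes in these comparisons. Libraries that did not overlap, with every treated library higher, were found for 2 of 5 members with SiO2 (7.85% of all genes tested), 2 of 5 with DNP-HSA (6.94%) and 5 of 5 with both (8.58%). The median log2 change of the members was 0.48, 0.87 and 0.91 in the 3 comparisons, beside -0.01, 0.01 and -0.01 over all genes. The 3 comparisons share the blank libraries and are not independent of each other.

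**Figure D2:**
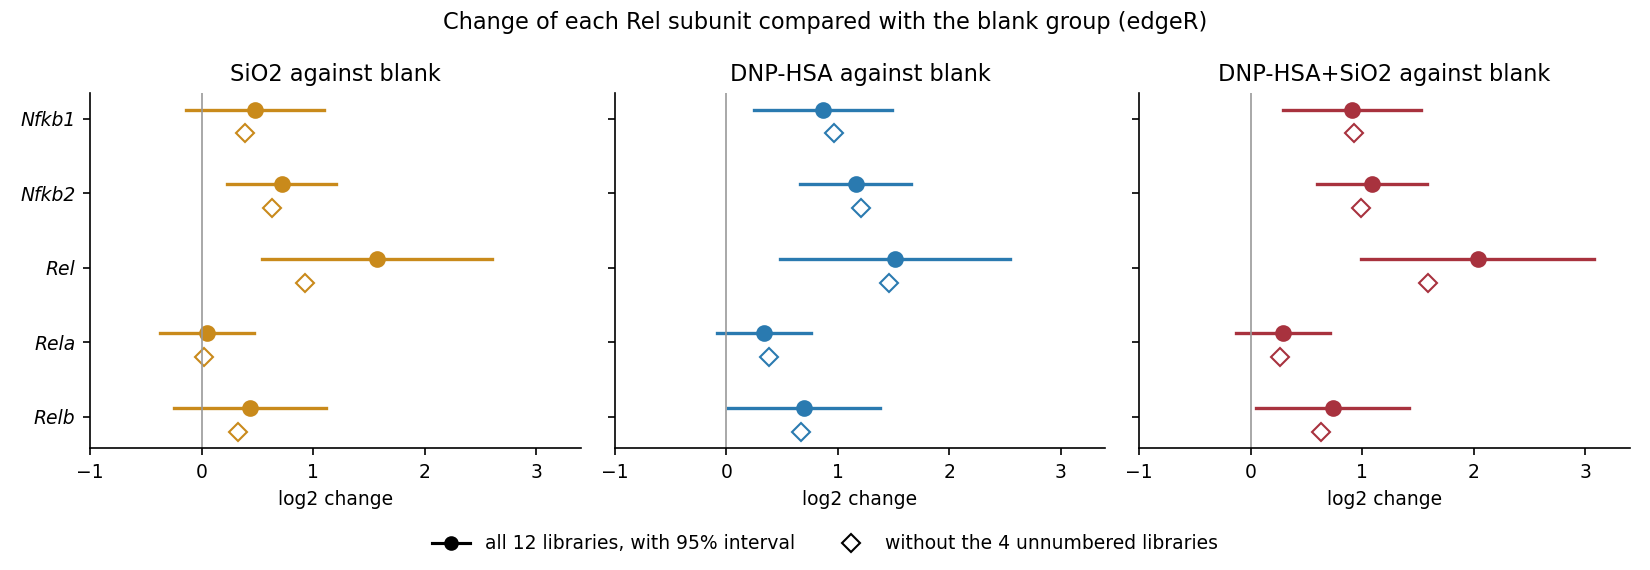
Log2 change of each Rel subunit gene compared with the blank group (horizontal axis) for SiO2, DNP-HSA and DNP-HSA+SiO2, from the edgeR fit over all 12 libraries (filled circles with 95% intervals) and without the 4 unnumbered libraries (open diamonds). The intervals of Rel and Nfkb2 lie above 0 in all 3 panels and those of Rela span 0, although no member passed after adjustment over all genes, and leaving out the unnumbered libraries lowers the SiO2 value of Rel from 1.57 to 0.92.

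Whether SiO2 added to the antigen was asked by comparing DNP-HSA+SiO2 with DNP-HSA. Here 0 of 5 members passed, as did 0% of all genes tested. Unadjusted, 0 members and 83 genes had an edgeR p under 0.05, and DESeq2 called 4 genes and none of the members. The log2 change of Rel was 0.52 (SE 0.46, 95% interval -0.49 to 1.53) and that of Nfkb2 was -0.07 (-0.56 to 0.42). Nfkb1, Rela and Relb had values of 0.04 (-0.57 to 0.65), -0.04 (-0.46 to 0.38) and 0.04 (-0.64 to 0.71). These intervals take the libraries as unpaired and leave room for a rise or a fall of each. By label, Rel was at 609 against 298 CPM (unnumbered), 403 against 313 (libraries 1) and 184 against 223 (libraries 2), so the pairs did not all go the same way. With the label pairs as a replicate block, 0 members and 0 genes passed (edgeR).

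In DNP-HSA+SiO2 compared with SiO2, 0 of 5 members and 0% of all genes tested passed (edgeR, with 0 members and 139 genes at an unadjusted p under 0.05, and 6 genes and 0 members called by DESeq2), and the members' log2 changes lay between 0.25 for Rela and 0.46 for Rel. In SiO2 compared with DNP-HSA, 0 of 5 members and 0% of all genes passed (0 members and 158 genes unadjusted, 2 genes and 0 members by DESeq2). The values there ran from -0.44 for Nfkb2 (95% interval -0.93 to 0.05) to 0.06 for Rel (-0.95 to 1.07). In the test of the interaction, which asks whether both agents together differed from the sum of their separate log2 changes, 0 of 5 members passed, where 0.0233% of all genes tested passed. All 5 values were below 0, from -0.09 for Rela to -1.05 for Rel (95% interval -2.48 to 0.37), and without the unnumbered libraries they ran from -0.15 for Rela to -0.85 for Nfkb2. Leaving out single libraries took Rela up to 0.047. The median of the members was -0.44, beside -0.003 over all genes, and the share of all genes below 0 was not computed. The 5 values rest on the same libraries and are not independent of each other. The smallest unadjusted p among them was that of Nfkb2 (log2 value -0.79, SE 0.31, unadjusted p = 0.0286, adjusted p = 0.99996, edgeR). DESeq2 called 36 genes and 0 members in this test.

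The make-up of the family's transcript pool was described by each member's share of the summed FPKM. Rela held 20.2% to 22.8% of the pool in the blank libraries, 12.3% to 19.2% in the SiO2 libraries, 14.1% to 16.2% in the DNP-HSA libraries and 12.1% to 15.9% in the DNP-HSA+SiO2 libraries. Every treated library thus lay below every blank library. A share also falls when the other members rise. The FPKM of Rela itself overlapped between the groups, at 39.2 ± 7.42 in the blank group. It was 39.8 ± 13.7, 42.5 ± 7.13 and 38.5 ± 8.53 in the SiO2, DNP-HSA and DNP-HSA+SiO2 groups. The mean share was 21.7% ± 1.34 (SD, n = 3) in the blank group and 16.5% ± 3.67, 15.0% ± 1.07 and 13.7% ± 1.95 in the SiO2, DNP-HSA and DNP-HSA+SiO2 groups. In an exact permutation test, two-sided, each difference had p = 0.1, the smallest that 3 against 3 libraries can give, and an adjusted p of 0.375 over 15 tests. The share of Rel was 7.54% ± 1.41 in the blank group and 14.1% ± 8.75, 12.01% ± 5.03 and 15.3% ± 8.37 in the treated groups, with overlap in each (exact p = 0.3). Nfkb1 held 49.8% to 51.6% of the pool as group means and 44.6% to 57.1% in single libraries. Without the unnumbered libraries the mean share of Rela was 22.4% in the blank group and 18.6%, 14.4% and 14.5% in the treated groups, and that of Rel was 7.01% and 9.26%, 9.51% and 10.8%. Nfkb2 held 13.8% ± 0.621 in the blank group and 16.5% ± 0.850 in the DNP-HSA group, without overlap (exact p = 0.1, adjusted 0.375), and a share computed from counts in place of FPKM overlapped.

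**Figure D3:**
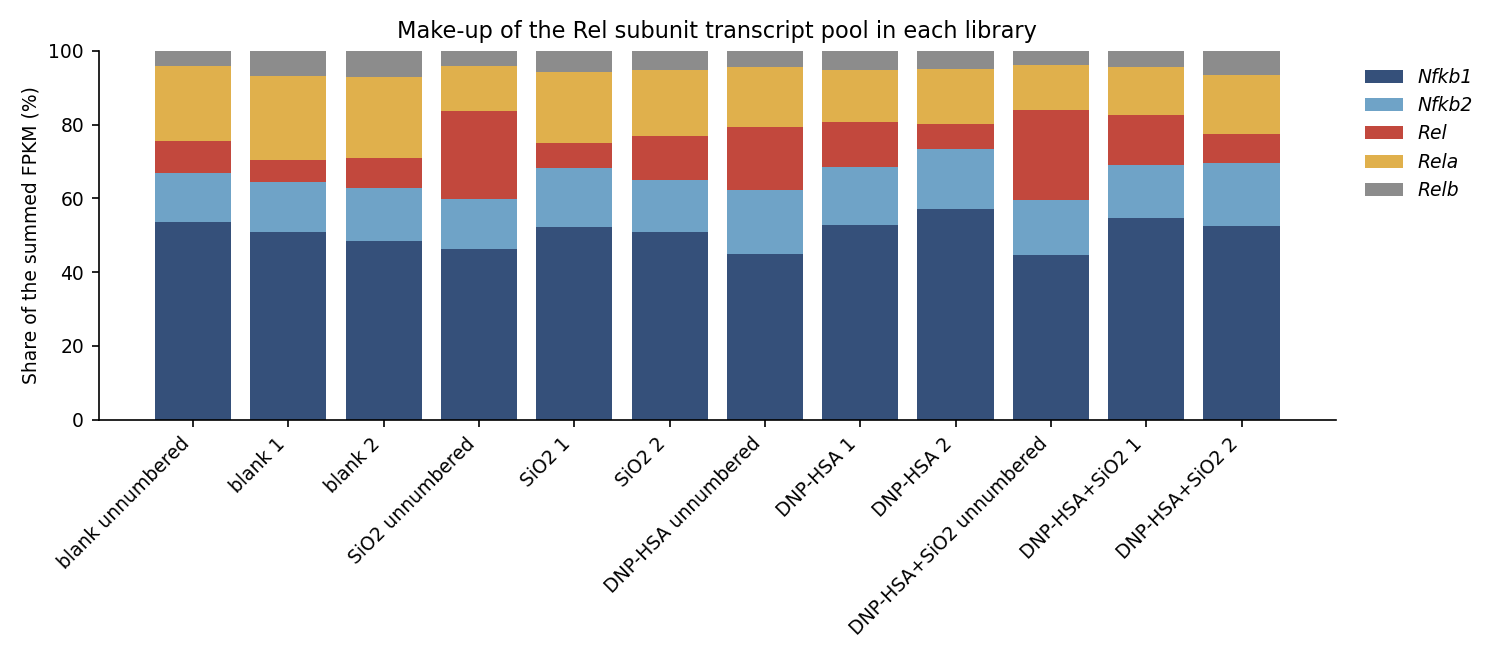
Share of each Rel subunit gene in the summed FPKM of the 5 genes (vertical axis, percent) in each of the 12 libraries. Isoforms confined to the 3′ part of Nfkb1 make up 53.7% to 89.9% of its FPKM. Nfkb1 is the largest part of every bar (44.6% to 57.1%), the Rela part is larger in the 3 blank libraries (20.2% to 22.8%) than in any treated library, and the Rel part is largest in the unnumbered SiO2 and DNP-HSA+SiO2 libraries (23.8% and 24.4%). The FPKM of Rela itself overlaps between the groups.

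The ratio of Rel to Rela FPKM set the c-Rel transcript beside that of p65. It was 0.426, 0.261 and 0.366 in the blank libraries (unnumbered, 1 and 2), 1.93, 0.356 and 0.653 in the SiO2 libraries, 1.05, 0.854 and 0.473 in the DNP-HSA libraries and 2.02, 1.04 and 0.500 in the DNP-HSA+SiO2 libraries. Only SiO2 1 lay within the blank range, and the unnumbered library was the highest of its group in each group.

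Of the 33 member isoforms, 12 held at least 10% of their gene's FPKM in some group and 22 had enough signal to be tested. Isoform values were estimated by the authors' software from reads that isoforms share, so the division of a gene's reads among them is less certain than their sum. Rel had a single isoform (ENSMUST00000102864, 7466 bases, 10 exons), which makes its values free of this division. No member isoform passed in SiO2 compared with blank, where 0.0357% of 30820 isoforms passed, in DNP-HSA (0.0422%) or in DNP-HSA+SiO2 (0.0389%). At an unadjusted edgeR p under 0.05 there were 3, 8 and 5 of the 22 member isoforms tested, where 5.78%, 5.94% and 8.55% of all isoforms tested lay under it, and no other tool was run on isoforms.

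Nfkb1 (chr3:135584655-135691547, minus strand, 10 isoforms, coordinates equal to GENCODE M21 on GRCm38) had isoform values that differed widely between libraries of a group. Its full-length coding isoform ENSMUST00000029812, of 25 exons, was at 0.238, 46.0 and 3.64 FPKM in the blank libraries (unnumbered, 1 and 2), 0.158, 10.1 and 0.0406 in the SiO2 libraries, 28.5, 0.254 and 0.548 in the DNP-HSA libraries and 5.23, 3.18 and 52.1 in the DNP-HSA+SiO2 libraries. In the blank, DNP-HSA and DNP-HSA+SiO2 groups 1 library stood far above the others, and the groups overlapped. The coding isoform ENSMUST00000132668, of 12 exons, and the retained-intron isoform ENSMUST00000129428, both confined to the 3′ part of the gene, were at 21.2 to 96.1 and 19.0 to 76.5 FPKM. The 5 isoforms that lie in this 3′ part made up 53.7% to 89.9% of the gene's FPKM, and the lowest shares, in blank 1, DNP-HSA+SiO2 2 and the unnumbered DNP-HSA library, were those of the 3 libraries with most full-length isoform. The isoform ENSMUST00000184550, annotated for nonsense-mediated decay, was listed at 0 in all blank and all DNP-HSA libraries and at 0 to 27.1 FPKM in the others. In the test of isoform usage, 0 of 4 members tested passed in SiO2 (0.531% of 6783 genes passed), DNP-HSA (0.752%) and DNP-HSA+SiO2 (0.988%), and the smallest p was that of Nfkb1 with SiO2 (unadjusted p = 0.0188, adjusted p = 0.377, edgeR diffSpliceDGE), the only one under 0.05 before adjustment.

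Nfkb2 (chr19:46304320-46312385, plus strand, 8 isoforms) has isoforms from the upstream start and from starts further in. The 3 upstream isoforms summed to 15.0 to 19.5 FPKM in the blank libraries, 21.3 to 33.2 in the SiO2 libraries, 28.1 to 41.8 in the DNP-HSA libraries and 26.3 to 37.2 in the DNP-HSA+SiO2 libraries, with no treated library in the blank range. The 5 downstream isoforms summed to 6.27 to 8.50, 7.63 to 11.4, 9.9995 to 13.2 and 8.91 to 13.4 FPKM in the same order, and here a SiO2 library lay within the blank range. Among single isoforms ENSMUST00000073116, whose start lies in the upstream promoter shown above, had log2 changes of 0.93, 1.48 and 1.65 (SE 0.40, 0.40 and 0.40, adjusted p = 0.836, 0.400 and 0.203, edgeR). ENSMUST00000111881, which starts at the next promoter, had values of -0.04, 0.35 and 0.13 (each SE 0.39), and ENSMUST00000237330, which begins before the upstream window, had 0.57, 1.05 and 0.64 (SE 0.35). A further downstream isoform, the retained-intron ENSMUST00000237761, held under 10% of the gene and was singled out after its values were seen. It was at 0.122 to 1.64 FPKM in the blank libraries, 2.06 to 2.80 in the SiO2 libraries, 3.48 to 4.68 in the DNP-HSA libraries and 2.70 to 4.85 in the DNP-HSA+SiO2 libraries, without overlap with blank. Its log2 changes of 1.87, 2.61 and 2.55 (SE 0.66, 0.68 and 0.68, adjusted p = 0.689, 0.356 and 0.258, edgeR) were above those of ENSMUST00000073116, so single isoforms did not divide by start. The usage test found no difference past the threshold among Nfkb2 isoforms (unadjusted p = 0.501, 0.364 and 0.246). On the opposite strand the noncoding gene AC114539.1 overlaps the upstream starts and Psd overlaps the last part of Nfkb2. The libraries were made with strand marking, but no source used here says whether the counting used strand.

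**Figure D4:**
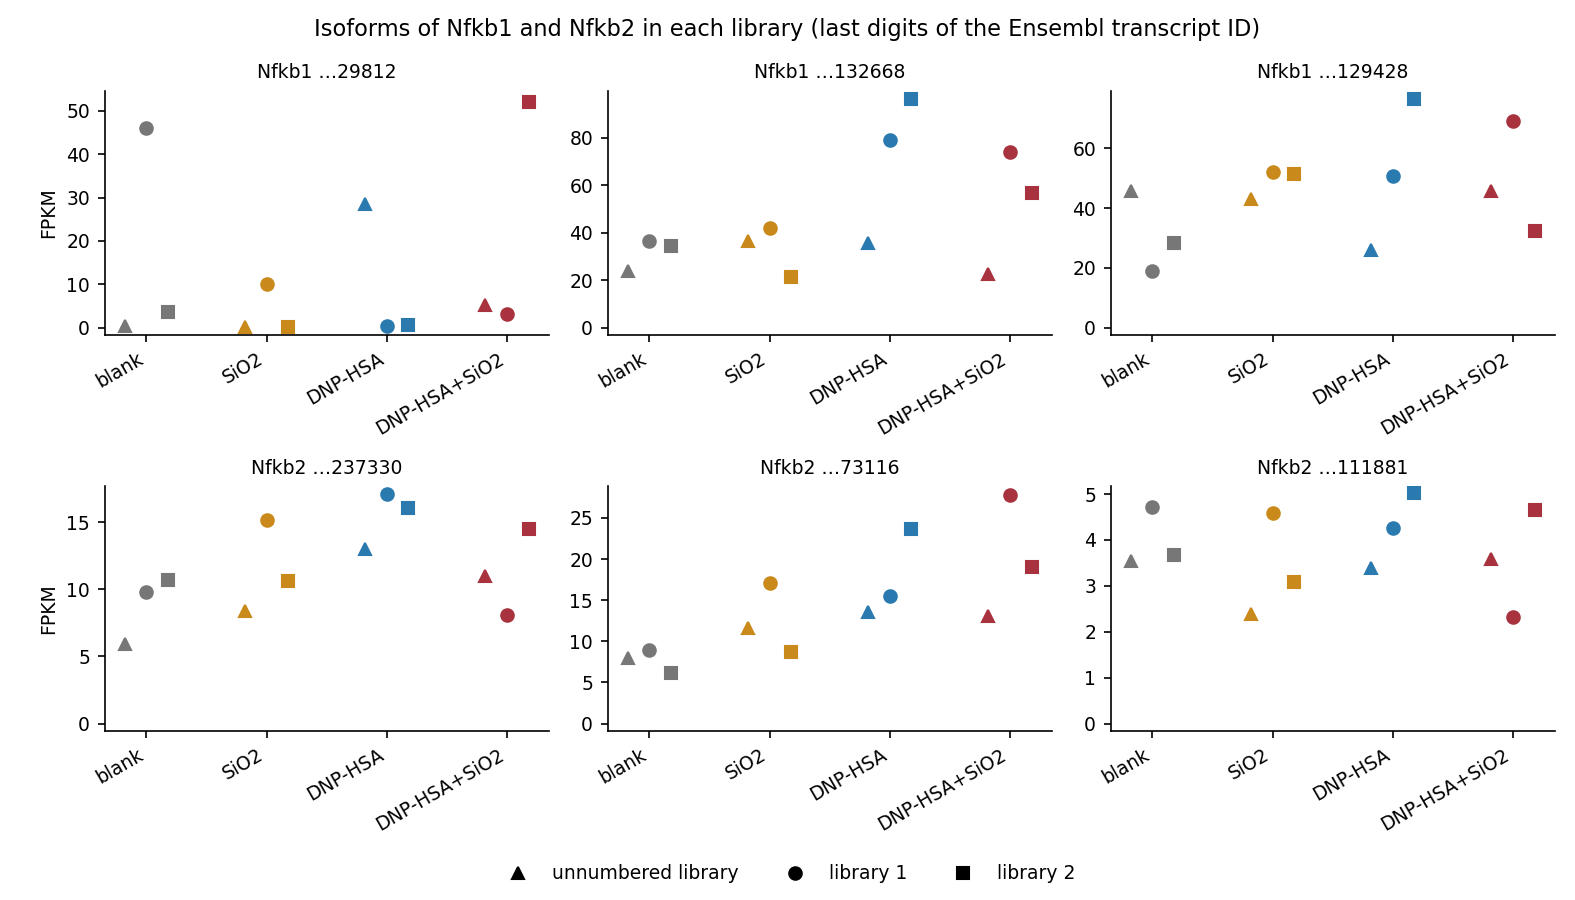
FPKM of 3 isoforms of Nfkb1 (upper row) and 3 of Nfkb2 (lower row) in each library by group, with triangles for unnumbered libraries and circles and squares for libraries 1 and 2. The full-length Nfkb1 isoform is at most 10.1 FPKM in 9 libraries and at 28.5 to 52.1 FPKM in 3 libraries of 3 groups, while ENSMUST00000073116 of Nfkb2 is higher in all DNP-HSA and DNP-HSA+SiO2 libraries (13.04 to 27.7 FPKM) than in the blank libraries (6.19 to 8.95).

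Rela (chr19:5637483-5648130, plus strand, 7 isoforms) was carried mainly by its coding isoform ENSMUST00000025867, at 20.4 to 42.6 FPKM. In the SiO2 libraries this isoform was at 20.4 to 23.4 FPKM, below all blank libraries at 29.6 to 35.8, with a log2 value of -0.32 in counts (SE 0.23, unadjusted p = 0.196, edgeR). On the log2(FPKM + 1) scale the median of all genes was itself at -0.23 with SiO2. The share of all isoforms that separate in this way was not computed. An isoform annotated for nonsense-mediated decay, ENSMUST00000237838, ranged from 0 to 25.0 FPKM, with 0 to 15.1 FPKM in the blank libraries and 0.6085 to 25.0 in the SiO2 libraries. Relb (chr7:19606217-19629438, minus strand, 7 isoforms) was carried by the coding isoform ENSMUST00000049912 at 3.70 to 13.1 FPKM and by the retained-intron isoform ENSMUST00000137615 at 1.0005 to 4.35 FPKM. The latter had log2 changes of 0.78, 1.21 and 1.10 (SE 0.43, 0.44 and 0.44, adjusted p = 0.968, 0.697 and 0.510, edgeR). The 21 isoforms outside these 12 reached at most 12.9 FPKM.

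The IκB proteins hold Rel dimers in the cytoplasm (Nfkbia, Nfkbib, Nfkbie) or bind them in the nucleus (Bcl3, Nfkbiz, Nfkbid). Of the 6 genes, all tested, none passed with SiO2, 1 rose with DNP-HSA and 2 rose with DNP-HSA+SiO2, and none fell (edgeR, with 0.0622%, 0.218% and 0.575% of all genes passing). At an unadjusted p under 0.05, 3, 4 and 4 of the 6 were higher (5.78%, 4.52% and 6.95% of all genes) and none lower. Bcl3, named after its values were seen, had the only values below 0 in this list, at -1.34, -0.72 and -0.75 (SE 0.96, 0.94 and 0.95). Nfkbid was at 16.6, 7.54 and 14.0 CPM in the blank libraries (unnumbered, 1 and 2), 896, 187 and 205 in the SiO2 libraries, 867, 259.6 and 735 in the DNP-HSA libraries and 1441, 596 and 459.7 in the DNP-HSA+SiO2 libraries. No treated library came near the blank range. Without the unnumbered libraries the log2 values of Nfkbid were 4.19, 5.54 and 5.63. With both agents Nfkbid rose by a log2 change of 6.03 (SE 0.85, adjusted p = 0.0192, edgeR) and Nfkbiz by 4.56 (SE 0.83, adjusted p = 0.0440, edgeR). Both calls were lost when any 1 blank library was left out (adjusted p from 0.0901 to 0.130 for Nfkbid and from 0.159 to 0.228 for Nfkbiz, edgeR). Nfkbiz also missed the threshold without the unnumbered libraries (adjusted p = 0.0917, log2 change 3.54) and with no filter on low values (0.0627), and when SiO2 2, any 1 DNP-HSA library, DNP-HSA+SiO2 unnumbered or DNP-HSA+SiO2 1 was left out (0.0511 to 0.0990). The call of Nfkbid with DNP-HSA (adjusted p = 0.0279, edgeR) was likewise lost without any 1 blank library, without DNP-HSA 2 or without DNP-HSA+SiO2 1 (adjusted p from 0.0607 to 0.198). In the other direction, Nfkbid with SiO2 (adjusted p = 0.0622, edgeR) passed in 5 of 24 alternatives, DESeq2 and both limma fits among them, and DESeq2 also called Nfkbiz with SiO2. Nfkbiz with DNP-HSA (adjusted p = 0.0943, edgeR) passed in 6 of 23.

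Around the subunits, 4 signaling lists had medians near 0. Of the 3 IKK genes (Chuk, Ikbkb, Ikbkg), 7 of 8 genes of the noncanonical pathway, 11 genes of canonical signaling upstream of IKK, 7 of 8 genes of p105 and p100 turnover, 11 of 13 targets and feedback genes and 4 of 5 genes of the NFAT family, which also holds a Rel homology region, all tested, none passed in any treatment compared with blank (edgeR). Their median log2 changes with SiO2, DNP-HSA and both were 0.01, 0.11 and 0.06 for IKK, -0.13, -0.15 and -0.23 for the noncanonical pathway and -0.02, 0.03 and 0.07 for canonical signaling. They were 0.01, 0.06 and 0.08 for p105 and p100 turnover, 1.11, 0.18 and 1.14 for targets, and -0.23, -0.11 and -0.03 for NFAT. The IκB list had medians of 0.67, 1.32 and 1.15. At an unadjusted edgeR p under 0.05 there were 0, 0, 2, 2, 5 and 1 higher genes with SiO2 (5.78% of all genes), 0, 0, 2, 1, 5 and 1 with DNP-HSA (4.52%) and 0, 0, 2, 1, 5 and 1 with both (6.95%), in the order of the lists given. Lower genes at this p were 2 targets and 2 NFAT genes with SiO2, none with DNP-HSA and 1 target with both.

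Within the lists around the subunits, a few genes stood out as values. Malt1, the protease that joins Bcl10 below the antigen receptors, had log2 changes of 2.12, 1.49 and 2.40 (SE 0.55, 0.54 and 0.56, adjusted p = 0.243, 0.466 and 0.0902, edgeR). Bcl10 itself had 0.57, 0.61 and 0.72. Map3k8, the kinase that p105 binds and holds inactive, was at 0.899 to 1.59 CPM in the blank libraries, 43.5 to 269.5 in the SiO2 libraries, 15.4 to 54.9 in the DNP-HSA libraries and 11.8 to 311 in the DNP-HSA+SiO2 libraries, with no overlap of any treated group with the blank group. Its log2 changes were 6.46, 4.54 and 6.51 (SE 1.301, 1.19 and 1.304, adjusted p = 0.119, 0.200 and 0.0551, edgeR). Among targets, the chemokine genes Ccl4 and Ccl3 had log2 changes of 7.18 and 6.38 with SiO2, 6.001 and 5.13 with DNP-HSA and 7.37 and 6.66 with both, and the cytokine gene Il6 had 4.81, 3.91 and 5.20, none past the threshold. With SiO2, Ccl4 was at 3459, 512 and 302 CPM (unnumbered, 1 and 2) and Ccl3 at 6051, 685 and 503. The blank libraries were at 5.16 to 18.2 for Ccl4 and 17.1 to 46.3 for Ccl3. Of the 11 targets tested 8, 6 and 7 had a higher value. Icam1, an adhesion molecule, had -0.73, -0.44 and -0.68 (SE 0.31) and Tnip1, a partner of the A20 protein, had -0.71, -0.26 and -0.51 (SE 0.28), both named after their values were seen. In the NFAT family Nfatc1 had 1.39, 1.11 and 1.31 (SE 0.41), while Nfatc2 had -1.08, -0.12 and -0.53 (SE 0.40, 0.39 and 0.39) and Nfatc3 had -0.50, -0.21 and -0.30 (SE 0.18), none past the threshold. In the noncanonical pathway Map3k14 had 0.04, 0.27 and 0.38, and in the IKK complex Chuk had 0.41, 0.15 and 0.40.

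Members also differed between unnumbered and numbered libraries, with the group in the model. Relb was lower in the unnumbered libraries by a log2 value of -0.68 (SE 0.11, adjusted p = 0.00220, edgeR, 25.1 against 39.5 CPM on average) and Rela by -0.34 (SE 0.09, adjusted p = 0.0231, 91.7 against 116 CPM). Nfkb1 and Nfkb2 had values of -0.44 and -0.32 (adjusted p = 0.0737 and 0.0991), and Rel had the opposite sign, 0.69 (SE 0.28, adjusted p = 0.0950, 375 against 211 CPM). Thus 2 of 5 members passed, beside the 25.1% of all genes given above. The part in this of the markers that differed between the same libraries, given above, was not tested. With this difference as a term in the model, Nfkb2 passed with DNP-HSA (adjusted p = 0.0203, edgeR). With DNP-HSA+SiO2, Nfkb2, Rel and Relb passed (adjusted p = 0.0180, 0.0394 and 0.0358, edgeR). Of all 12862 genes, 116 passed with DNP-HSA and 222 with both under this term, against 28 and 74 without it. When the unnumbered libraries were left out instead, 0 members passed, beside 54 genes with DNP-HSA and 22 with both.

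Across the 12 libraries, which share groups and the unnumbered libraries, the correlations of the members are given as descriptions. Nfkb1 and Nfkb2 had a Pearson r of 0.933 and Rela and Relb of 0.930. Nfkb1 had 0.854 with Rela and 0.882 with Relb, and Nfkb2 had 0.807 and 0.873. Rel was less correlated with the others, at 0.617 with Nfkb2, 0.463 with Nfkb1, 0.295 with Relb and 0.119 with Rela. Among 12861 genes compared with each member, those with the most similar pattern to Rel were Lrrc57 (r = 0.990), Ddx3x (0.990) and 1700101I11Rik (0.977). For Nfkb2 they were Furin (0.969), Tob2 (0.968) and Slc2a3 (0.961), and for Nfkb1 Numb (0.956), Ddx24 (0.948) and Lmna (0.934). Rela had Rara (0.942), 6530402F18Rik (0.939) and Relb (0.930), and Relb had Saraf (0.958), Jund (0.955) and Plekhj1 (0.954).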

How the data were processed

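RNA from 12 BMMC libraries was sequenced by the study in paired reads of 150 bases after poly(A) selection. Tools listed in the submitters' processing notes were edgeR, DESeq2, StringTie 1.3.4d, HISAT2 2.0.4 and cutadapt 1.9, and a genome build was not given in the sources used. The deposited table holds FPKM made by the authors per isoform and library, and an estimated count per isoform and library, deposited without normalization between libraries. Counts were summed per gene and rounded. The 12862 genes reaching 1 FPKM, summed over isoforms, in 3 or more libraries were tested with edgeR 4.0.16 (quasi-likelihood F-test, TMM, robust fit, R 4.3.3) over all 12 libraries, with Benjamini-Hochberg adjustment over all genes and a threshold of 0.05. Isoforms were tested in the same way, and isoform usage with diffSpliceDGE. The SE was taken as the absolute log2 change over √F, and the 95% interval uses the test's degrees of freedom. Alternatives used DESeq2 1.42.0 and limma 3.58.1. The interval of an estimated count does not cover the allocation of reads to isoforms.

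Deviations from the group means of libraries with the same number correlated across genes for SiO2 and blank (0.576 unnumbered, 0.599 for 1 and 0.581 for 2) and for DNP-HSA+SiO2 and DNP-HSA (0.462, 0.573 and 0.297), so numbers were taken to pair these groups from the data. They did not for DNP-HSA and blank (0.675, -0.112 and -0.0973) or for DNP-HSA+SiO2 and blank (0.572, -0.113 and -0.0340). With numbers 1 and 2 crossed, blank 1 and blank 2 correlated at 0.538 and 0.538 with the DNP-HSA libraries. With the DNP-HSA+SiO2 libraries the crossed values were 0.449 and 0.534. No label crosses these numbers, and a crossed pairing was not fitted.

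The members and lists were chosen with earlier results of these data known. All 5 members were named, isoforms with at least 10% of their gene's FPKM in a group, of each list up to 4 genes each way by p among those that passed or, where none passed, up to 4 by smallest p, and for each member the 3 genes most like it by Pearson r.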

Additional observations from a re-analysis of the deposited data

How the results depend on the processing

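The changes of the members, their isoforms, Nfkbid and Nfkbiz, the counts of genes passing and the family shares were recomputed under alternatives. The limma and DESeq2 fits each change several steps together. The unnumbered-or-numbered term and the shares without unnumbered libraries were chosen after seeing the data, and list medians, other list genes, usage tests and correlations were not recomputed. The 15 member changes against blank gave 350 values, of which 15 newly passed the threshold and 6, all of Rela, changed sign. The number of members passing was 0 in each comparison and became 1 with SiO2, 2 with DNP-HSA and 2 with both under DESeq2, 1 with DNP-HSA (Rel) when only both groups were fitted, 1 with DNP-HSA and 1 with both (Nfkb2) under the replicate block over all libraries, and 1 with DNP-HSA and 3 with both under the added term. The replicate block within the paired groups gave 0 members. Of all genes, 67 passed with DNP-HSA when only both groups were fitted. The replicate block over all libraries gave 66 genes with DNP-HSA and 101 with both, and the added term gave 116 and 222. Leaving out single libraries gave 0 to 1 members with DNP-HSA and 0 to 1 with both. All genes passing ranged from 0 to 278 with SiO2 (8 as reported), 2 to 309 with DNP-HSA (28) and 7 to 592 with both (74), the highest under DESeq2, from 0 to 4 in DNP-HSA+SiO2 against DNP-HSA, 0 to 6 against SiO2, 0 to 2 in SiO2 against DNP-HSA and 0 to 36 for the interaction.

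Values close to 0 changed sign. With limma at pseudocounts of 1 and 0.1, Rela was at -0.018 and -0.019 with SiO2 and at -0.034 and -0.035 with both, Nfkb1 at -0.0393 and -0.0394 and Relb at -0.042 and -0.046 in DNP-HSA+SiO2 against DNP-HSA, Rela at -0.0163 and -0.0159 in DNP-HSA+SiO2 against SiO2, and Rel at -0.10 and -0.11 in SiO2 against DNP-HSA. Without the unnumbered libraries Nfkb1 and Relb were at -0.0425 and -0.0430 in DNP-HSA+SiO2 against DNP-HSA, Rel at -0.53 in SiO2 against DNP-HSA, ENSMUST00000132668 at -0.027 with SiO2 and ENSMUST00000111881 at -0.080 with both. Under the replicate block over all libraries Rel was at -0.061 in SiO2 against DNP-HSA (-0.083 with the added term), ENSMUST00000029812 at 2.23 with DNP-HSA and ENSMUST00000237838 at 0.98 with both. With no filter ENSMUST00000111881 was at 0.00056 with SiO2.

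Leaving out single libraries moved Rela with SiO2 from -0.065 to 0.14, in DNP-HSA+SiO2 against DNP-HSA Nfkb1 from -0.18 to 0.32, Nfkb2 from -0.24 to 0.13, Rela from -0.19 to 0.091 and Relb from -0.18 to 0.21, Rel in SiO2 against DNP-HSA from -0.57 to 0.36, and Rela in the interaction from -0.24 to 0.047. For isoforms the ranges were -7.10 to 1.07 (SiO2), -5.08 to 2.46 (DNP-HSA) and -1.66 to 3.65 (both) for ENSMUST00000029812, -0.31 to 0.16 (SiO2) and -0.035 to 0.40 (both) for ENSMUST00000111881, -0.098 to 0.71 (SiO2) and -0.11 to 0.88 (DNP-HSA) for ENSMUST00000049912, and -1.17 to 5.16 (DNP-HSA) and -4.08 to 4.18 (both) for ENSMUST00000237838. The cause of these changes was not tested. With 3 libraries a group, an exact test cannot go below p = 0.1.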
